A study of Mus musculus with 18 samples.

Results

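The 8 genes described here, Xcr1, Clec9a, Batf3, Irf8, Itgae, Cadm1, Wdfy4 and Id2, are surface markers, transcription factors and an effector of the cross-presenting dendritic cell known as cDC1. They were taken by symbol from a table of 23337 genes counted in 18 RNA-seq libraries of arterial immune cells. All 8 were in the table, and all 8 passed the low-count filter that left 17143 genes for testing. In brief, cells that carried the Cd11c reporter alone (YFP) held the highest single library for every gene but Xcr1 and the highest mean for every gene but Wdfy4, and none of the 8 passed the adjusted edgeR test between any pair of subsets. DESeq2 and limma voom, run as alternatives, called Clec9a and Itgae for YFP versus GFP cells, with 1.08% and 2.69% of all genes called. Voom called Itgae for DP versus GFP cells, where it called 20.1% of all genes. The high values sat in different YFP libraries for different genes.

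Cross-presentation is the loading of peptides from engulfed material onto MHC class I, which lets a dendritic cell prime CD8+ T cells against antigens it does not make itself. cDC1 are the dendritic cells best known for it. Their development depends on IRF8, BATF3 and ID2, and mature cells are recognised by the chemokine receptor XCR1 and the dead-cell receptor CLEC9A. In arteries they are a small population beside many macrophages, and macrophages, monocytes and lymphocytes also make IRF8 and ID2.

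The libraries came from male and female Apoe-/- Cx3cr1GFP Cd11cYFP mice of the C57BL/6 strain, 7 months old, that had eaten a Western diet for 5 months. All groups therefore share the Apoe deletion, both reporters and the diet, and no group without atherosclerosis was analysed here. GFP reports activity of the Cx3cr1 locus and YFP that of the Cd11c (Itgax) promoter, and live CD45+ cells of digested aortas and carotid arteries were sorted on these colours into 4 subsets. YFP cells carried YFP alone (n = 5, replicates 1, 3, 4, 5 and 6), DP cells both colours (n = 4, replicates 1, 2, 4 and 5), GFP cells GFP alone (n = 6, replicates 1 to 6) and DN cells neither (n = 3, replicates 1, 3 and 6). Nothing in the labels ties a replicate to a single mouse or to a pool, so p-values measure the spread between these libraries, which may be technical.

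Total gene counts ran from 9790946 to 27742113 per library, apart from 289166 in YFP replicate 6, where 3 counts amount to 8.96 CPM against 0.0694 to 0.320 CPM elsewhere. CPM is the count relative to the library's total after TMM scaling of that total. Several libraries went against their sort by the transcripts of the reporter genes. Cx3cr1 was at 9.43 and 0.427 CPM in DP replicates 4 and 5, against 92.7 and 118 CPM in DP replicates 1 and 2, and Itgax at 38.6 and 47.8 against 456 and 311 CPM. In DN cells, replicates 3 and 6 were at 142 and 134 CPM for Cx3cr1 and at 332 and 297 CPM for Itgax, where replicate 1 was at 4.09 and 11.4 CPM. YFP replicate 6 held 104 CPM of Cx3cr1, within the GFP range, and the lowest Itgax of the YFP libraries (89.6 CPM). Cx3cr1 was at 60.74, 60.01 and 26.3 CPM in YFP replicates 3, 4 and 5, against 0.93 CPM in YFP replicate 1. These values lay below the 80.9 to 165 CPM of GFP libraries. Itgax was at 107 to 191 CPM in GFP libraries, a range that held YFP replicate 1 (175 CPM). YFP replicates 3, 4 and 5 were above it, at 380, 499 and 1120.1 CPM of Itgax. Macrophage markers, summed over 5 genes, were lowest in DN replicate 1 (285 CPM) and YFP replicate 1 (1258 CPM), next lowest in DP replicate 4 (2380 CPM) and at 4594 to 8117 CPM in the other libraries. Results below are for all libraries as labelled, and fits without the doubtful DP and DN libraries stand beside them. In sorted bulk samples, fewer cells of a type and less RNA per cell cannot be told apart.

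Clec9a encodes the lectin receptor that binds actin exposed by dead cells, and Xcr1 the receptor for the chemokine XCL1, which activated CD8+ T cells and NK cells release. They are the most cDC1-restricted markers of the 8. Their start-site regions are shown because both genes were high in the same pair of YFP libraries, 1 and 3. The 250 bases before each start are from RefSeq (GRCm38.p6, the assembly also called mm10), 5′ to 3′ on the gene's strand, at chr6:129408612-129408861 (plus strand) for Clec9a and chr9:123862030-123862279 (minus strand) for Xcr1. Capitals mark GGAA or its reverse complement TTCC, the core that Ets factors such as PU.1 bind.
Clec9a: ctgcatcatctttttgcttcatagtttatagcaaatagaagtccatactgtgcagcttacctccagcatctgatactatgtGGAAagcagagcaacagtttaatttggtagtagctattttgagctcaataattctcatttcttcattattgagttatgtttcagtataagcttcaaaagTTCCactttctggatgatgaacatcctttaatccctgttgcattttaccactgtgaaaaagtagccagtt
Xcr1: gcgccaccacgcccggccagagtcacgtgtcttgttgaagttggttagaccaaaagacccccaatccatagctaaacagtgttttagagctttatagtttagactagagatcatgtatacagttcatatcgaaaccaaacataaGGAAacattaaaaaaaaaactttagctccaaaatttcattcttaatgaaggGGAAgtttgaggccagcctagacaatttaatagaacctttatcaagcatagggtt
The RefSeq table held 7 such windows for 6 of the genes (Batf3, Clec9a, Irf8 with 2 starts, Xcr1, Id2 and Wdfy4). They were searched on both strands for the AP-1 letters TGANTCA, for an interferon-response core (GAAA and again GAAA, with 2 free bases between), for an Ets-IRF composite (GGAA before GAAA, with 2 free bases between) and for an AP-1-IRF composite (TTTC before TGANTCA, with 4 free bases between). The Ets-IRF composite contains GGAA and the AP-1-IRF composite contains TGANTCA, so those matches can overlap. None of the 4 longer motifs was in any of the 7 windows, and GGAA was in all 7. Over 32851 RefSeq windows of the same length, 6.75% held TGANTCA, 2.98% the interferon-response core, 2.30% the Ets-IRF composite, 0.0974% the AP-1-IRF composite and 93.4% GGAA.

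Clec9a (chromosome 6, 129408862 to 129424763, mm10) was read at 22.9, 14.7 and 1.20 CPM in YFP replicates 1, 3 and 4, from 937, 310 and 19 counts. It had 0 counts in YFP replicates 5 and 6, which allows up to 0.299 and 8.96 CPM at 3 counts. The 2 highest of all 18 libraries were thus YFP replicates 1 and 3. DP libraries 1, 2, 4 and 5 held 1.08, 2.36, 0.0831 and 0.107 CPM. GFP libraries ran from 0 through a median of 0.309 to 1.43 CPM, and DN libraries 1, 3 and 6 held 0.301, 1.10 and 0.147 CPM. The means were 7.77 ± 10.5 in YFP, 0.908 ± 1.07 in DP, 0.449 ± 0.539 in GFP and 0.516 ± 0.511 CPM in DN cells (SD), and the 4 subsets overlapped. Clec9a shares its first bases with the 3′ end of Clec1b on the same strand, a gene with 444 counts over all libraries.

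Xcr1 (chromosome 9, 123852315 to 123862029) stood at 40.1, 48.7, 11.3, 0.299 and 2.99 CPM in YFP replicates 1, 3, 4, 5 and 6, and the last value is 1 count. DP replicates 1, 2, 4 and 5 had 5.82, 5.69, 0.789 and 57.9 CPM. GFP libraries spanned 2.94 to 11.7 CPM with a median of 5.69, and DN replicates 1, 3 and 6 had 2.75, 9.60 and 3.01 CPM. The highest library of all was DP replicate 5, which held only 1 count of Clec9a, and the lowest was YFP replicate 5. Xcr1 was read in every library, including all 6 GFP libraries, where Clec9a did not pass 1.43 CPM. Means were 20.7 ± 22.2 in YFP, 17.6 ± 27.0 in DP, 6.54 ± 3.31 in GFP and 5.12 ± 3.88 CPM in DN cells (SD), with overlap between all neighbours in that order.

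**Figure D1:**
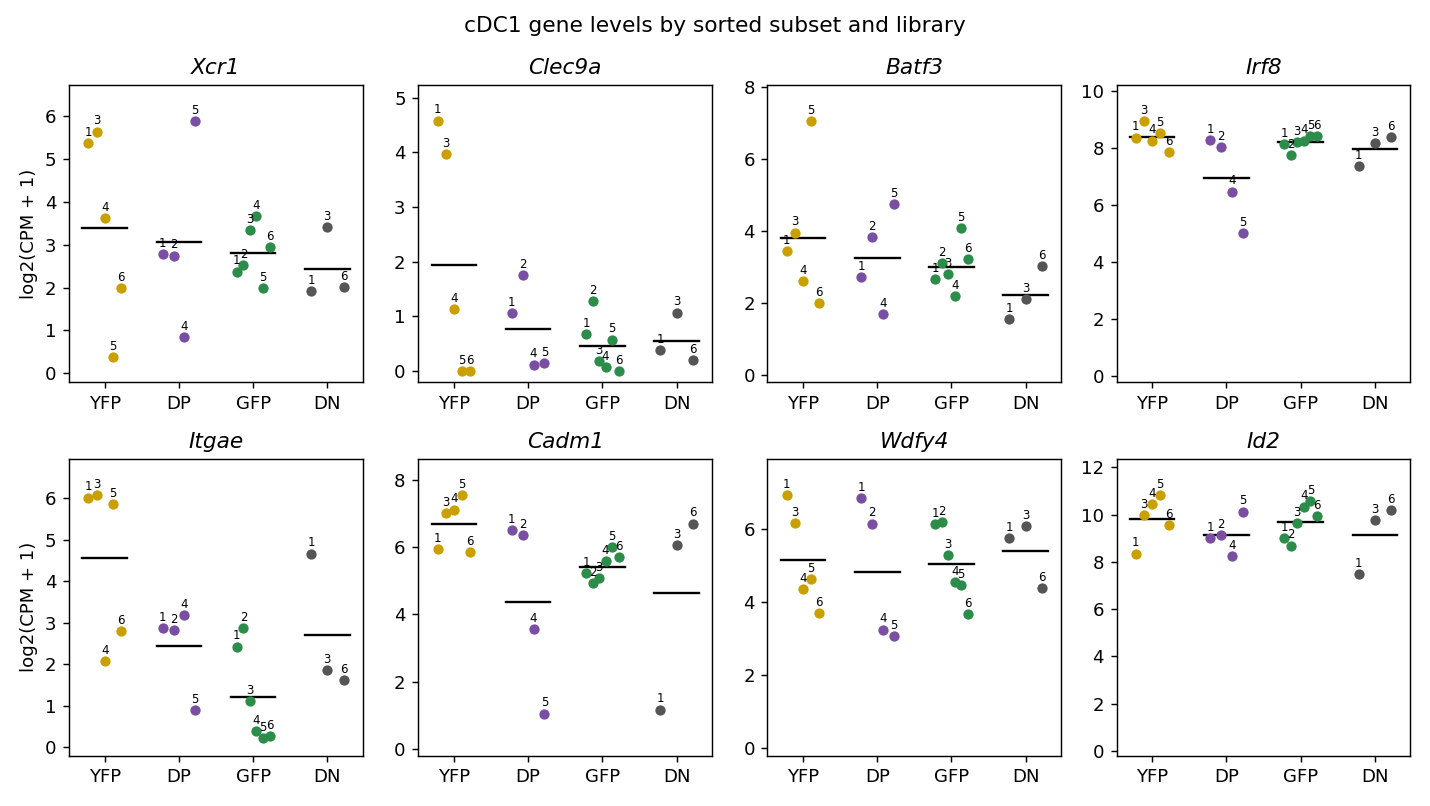
Level of each of the 8 genes in the 18 libraries, as log2(CPM + 1) on the vertical axis, by sorted subset on the horizontal axis. Points are libraries marked with the replicate number and bars are means of the plotted values. YFP replicates 1 and 3 lead for Clec9a and YFP replicate 5 for Batf3, while Irf8 lies within a narrow band in all libraries but DP replicates 4 and 5 and DN replicate 1.

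Itgae encodes CD103, the alpha chain that pairs with the beta-7 integrin and binds E-cadherin, and is carried by cDC1 of many tissues and by tissue-resident T cells. It lies on chromosome 11 (73090583 to 73147446). In YFP replicates 1, 3, 4, 5 and 6 it was at 63.5, 66.7, 3.21, 57.2 and 5.97 CPM, and in DP replicates 1, 2, 4 and 5 at 6.32, 6.10, 8.06 and 0.853 CPM. GFP libraries ran from 0.163 through a median of 0.738 to 6.28 CPM, and DN replicates 1, 3 and 6 had 24.4, 2.64 and 2.05 CPM. The 3 highest libraries were YFP replicates 1, 3 and 5, and the next was DN replicate 1. YFP replicates 4 and 6 lay inside the range of the other subsets, so the groups overlapped. Means were 39.3 ± 31.9 in YFP, 5.33 ± 3.11 in DP, 2.08 ± 2.61 in GFP and 9.69 ± 12.7 CPM in DN cells (SD). DN replicate 1 was also the library with the most T cell markers, at 787 CPM summed over 5 genes (5 of 6 found, Cd3e at 279 CPM). The same sum was 5.29 to 76.0 CPM in YFP and 5.47 to 130 CPM in GFP libraries. Itgb7, the beta-7 partner, was at 532 CPM in DN replicate 1 and at 57.6 to 210 CPM in YFP libraries. The part of T cells in the Itgae level of DN replicate 1 was not tested.

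Cadm1 encodes a homophilic adhesion molecule by which cDC1 are told from other dendritic cells in several species, and it is also made by many non-immune cells. It spans 47530173 to 47857637 on chromosome 9. YFP replicates 1, 3, 4, 5 and 6 held 60.5, 127, 137, 186 and 56.7 CPM, and DP replicates 1, 2, 4 and 5 held 90.3, 80.2, 10.9 and 1.07 CPM. GFP libraries lay between 29.5 and 63.0 CPM (median 41.3), and DN replicates 1, 3 and 6 held 1.25, 65.5 and 103 CPM. Only YFP replicates 1 and 6 reached down into the GFP range. The 3 lowest libraries were DP replicate 5, DN replicate 1 and DP replicate 4, whose reporter transcripts were low as well. Means were 113 ± 54.7 in YFP, 45.6 ± 46.1 in DP, 43.1 ± 12.7 in GFP and 56.5 ± 51.3 CPM in DN cells (SD).

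Batf3 encodes the AP-1 family partner that joins JUN proteins and IRF8 on DNA and maintains Irf8 expression in cDC1. It lies on chromosome 1 (191097847 to 191108945). YFP replicates 1, 3, 4, 5 and 6 had 9.89, 14.5, 5.10, 132 and 2.99 CPM, the last from 1 count, and DP replicates 1, 2, 4 and 5 had 5.57, 13.2, 2.20 and 26.0 CPM. GFP libraries ran from 3.56 through a median of 6.77 to 15.9 CPM, and DN replicates 1, 3 and 6 had 1.92, 3.30 and 7.12 CPM. YFP replicate 5 stood far above every other library, with 1328 counts, and it was the library with the lowest Xcr1 and with no Clec9a count. The other 4 YFP libraries lay between 2.99 and 14.5 CPM, inside the range of DP and GFP libraries. Means were 33.0 ± 55.8 in YFP, 11.7 ± 10.6 in DP, 7.77 ± 4.32 in GFP and 4.11 ± 2.69 CPM in DN cells (SD).

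Irf8 encodes the interferon regulatory factor on which cDC1 depend, and it also acts in monocytes, macrophages, B cells and plasmacytoid dendritic cells. It lies on chromosome 8 (120736358 to 120756694) within Gm20388, an annotated gene on the same strand that is not used here. YFP replicates 1, 3, 4, 5 and 6 held 325, 484, 303, 363 and 227 CPM, and DP replicates 1, 2, 4 and 5 held 305, 257, 87.2 and 31.4 CPM. GFP libraries ran from 214 through a median of 299 to 341 CPM, and DN replicates 1, 3 and 6 held 162, 283 and 330 CPM. The spread was far smaller than for Clec9a, Xcr1 or Itgae, and the low libraries were DP replicates 4 and 5 and DN replicate 1. Means were 340 ± 94.3 in YFP, 170.1 ± 132 in DP, 294 ± 46.8 in GFP and 258 ± 86.9 CPM in DN cells (SD). YFP, GFP and DN libraries overlapped.

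Id2 encodes an inhibitor that binds E proteins such as TCF4 and keeps them off DNA, and it is made by all classical dendritic cells and by many macrophages. It spans 25093799 to 25097140 on chromosome 12. YFP replicates 1, 3, 4, 5 and 6 had 325, 1019, 1386, 1811 and 758 CPM, and DP replicates 1, 2, 4 and 5 had 519, 564, 301 and 1122 CPM. GFP libraries ran from 413 through a median of 884 to 1535 CPM, and DN replicates 1, 3 and 6 had 179, 875 and 1170.4 CPM. The lowest libraries were DN replicate 1, DP replicate 4 and YFP replicate 1, which was the library with the most Clec9a. Means were 1060.0 ± 571 in YFP, 626 ± 349.7 in DP, 921 ± 439 in GFP and 741 ± 509 CPM in DN cells (SD), and all 4 subsets overlapped.

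Wdfy4 encodes a BEACH-domain protein that mouse cDC1 need to cross-present cell-associated antigen, and B cells make it too. It lies on chromosome 14 (32959547 to 33185508) and overlaps Lrrc18 on the opposite strand, which had 93 counts in all. Whether reads were counted by strand is not given in the sources used here. YFP replicates 1, 3, 4, 5 and 6 had 121, 70.4, 19.4, 23.7 and 11.9 CPM, and DP replicates 1, 2, 4 and 5 had 114, 70.0, 8.52 and 7.36 CPM. GFP libraries ran from 11.8 through a median of 30.1 to 72.4 CPM, and DN replicates 1, 3 and 6 had 53.3, 66.3 and 19.9 CPM. High and low values occurred in every subset. Among replicates 1 and 2 of all subsets the level was 53.3 to 121 CPM, and among replicates 3 to 6 it was 7.36 to 70.4 CPM. Libraries numbered 1 and 2 also had more genes with a count, 19245 to 21972 against 13150 to 18961 in those numbered 3 to 6, and the part of that difference in the Wdfy4 level was not tested. Wdfy4 was the only one of the 8 with its highest mean in DP cells, 49.9 ± 51.6 CPM, beside 49.3 ± 46.3 in YFP, 39.2 ± 26.0 in GFP and 46.5 ± 23.9 CPM in DN cells (SD).

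Levels of different genes were compared per kilobase of annotated exon. In YFP cells Id2 led with a mean level of 435 CPM per kb, before Irf8 (48.2), Batf3 (20.7), Cadm1 (10.9), Itgae (8.59), Wdfy4 (4.68), Xcr1 (4.64) and Clec9a (2.36 CPM per kb). In GFP cells Id2 led again at 378 CPM per kb and Irf8 followed at 41.7, with Batf3 at 4.87, Cadm1 at 4.12, Wdfy4 at 3.71, Xcr1 at 1.47, Itgae at 0.454 and Clec9a at 0.136 CPM per kb. The place of Batf3 in YFP cells rests on YFP replicate 5, since without it the mean level was 5.08 CPM per kb, below Cadm1 (9.12) and Itgae (7.61 CPM per kb). The broadly expressed pair Id2 and Irf8 headed both lists and Clec9a closed both.

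The comparison of YFP with GFP cells asks how cells with Cd11c reporter activity alone differ from cells with Cx3cr1 reporter activity alone. All 8 genes had a positive log2 fold change, where 51.7% of all tested genes did, and the median was 1.55 against 0.04 over all genes. Markers of other cells were higher as well in this comparison: all 5 B cell markers (median 3.57), all 5 fibroblast and smooth muscle markers (2.71), all 4 tested markers of mature dendritic cells (1.33) and 3 of 4 tested markers of plasmacytoid dendritic cells (1.73), with none called. Of the B cell and of the fibroblast and smooth muscle markers 3 each were at an unadjusted p under 0.05, and of those of plasmacytoid dendritic cells 2. Their part in the values of the 8 was not tested. Itgae had the largest fold change, 4.26 ± 1.04 on the log2 scale (SE, edgeR quasi-likelihood, Benjamini-Hochberg adjusted p = 0.159). Clec9a followed at 4.18 ± 1.32 (edgeR adjusted p = 0.380), with a GFP mean near the limit of 3 counts. Batf3 differed by 2.11 ± 0.82 (edgeR adjusted p = 0.597). None of the 8 passed the threshold of 0.05, as none of all 17143 genes did (0% called), and these 3 were at an unadjusted p under 0.05, as were 7.02% of all genes. Xcr1 differed by 1.70 ± 0.93 and Cadm1 by 1.403 ± 0.778, whereas the values of Wdfy4 (0.36 ± 0.71), Irf8 (0.21 ± 0.46) and Id2 (0.20 ± 0.52, all log2 ± SE) lay within their errors of 0. For no gene did all YFP libraries lie above or below all GFP libraries, which was so for 0.251% and 0.583% of all genes. Under each shared replicate number Itgae and Cadm1 were higher in the YFP than in the GFP library. Itgae was at 63.5 against 4.37 CPM for number 1 and at 3.21 against 0.319 CPM for number 4. Cadm1 was at 56.7 against 50.6 CPM for number 6. Every other member was lower in the YFP library under some number. Whether same-numbered libraries form pairs was not settled. The genes thus ran from large differences in Itgae and Clec9a to small ones in the broadly expressed Irf8 and Id2, but no test between members was made.

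DESeq2 and limma voom with quality weights, on the same counts, called Clec9a and Itgae. DESeq2 gave Clec9a an adjusted p of 0.0285 and Itgae 0.000872, with 1.08% of all genes called, and voom gave them 0.00605 and 0.00844, with 2.69% of all genes called. Over the fits that left out 1 library in turn, edgeR called none of the 8, and the log2 fold change ranged from 4.06 to 5.00 for Itgae, 3.08 to 4.98 for Clec9a and 1.32 to 2.17 for Xcr1. That of Batf3 dropped to 0.25 without YFP replicate 5, those of Wdfy4 and Id2 changed sign, to -0.30 without YFP replicate 1 and to -0.03 without YFP replicate 5, and the median of the 8 was 0.90 without YFP replicate 5. Without YFP replicates 1 and 3, a setting chosen after the data were seen, the log2 fold change of Clec9a was 0.045, that of Xcr1 -0.36 and that of Wdfy4 -0.91, and the median of the 8 was 0.56. The difference in Clec9a thus rests on those 2 libraries. Itgae was at 3.78 and Batf3 at 3.19 in that fit, where YFP replicate 5 held the high value of both. YFP replicates 4, 5 and 6 were at 3.21, 57.2 and 5.97 CPM for Itgae, the last from 2 counts. For Batf3 they were at 5.10, 132 and 2.99 CPM.

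**Figure D2:**
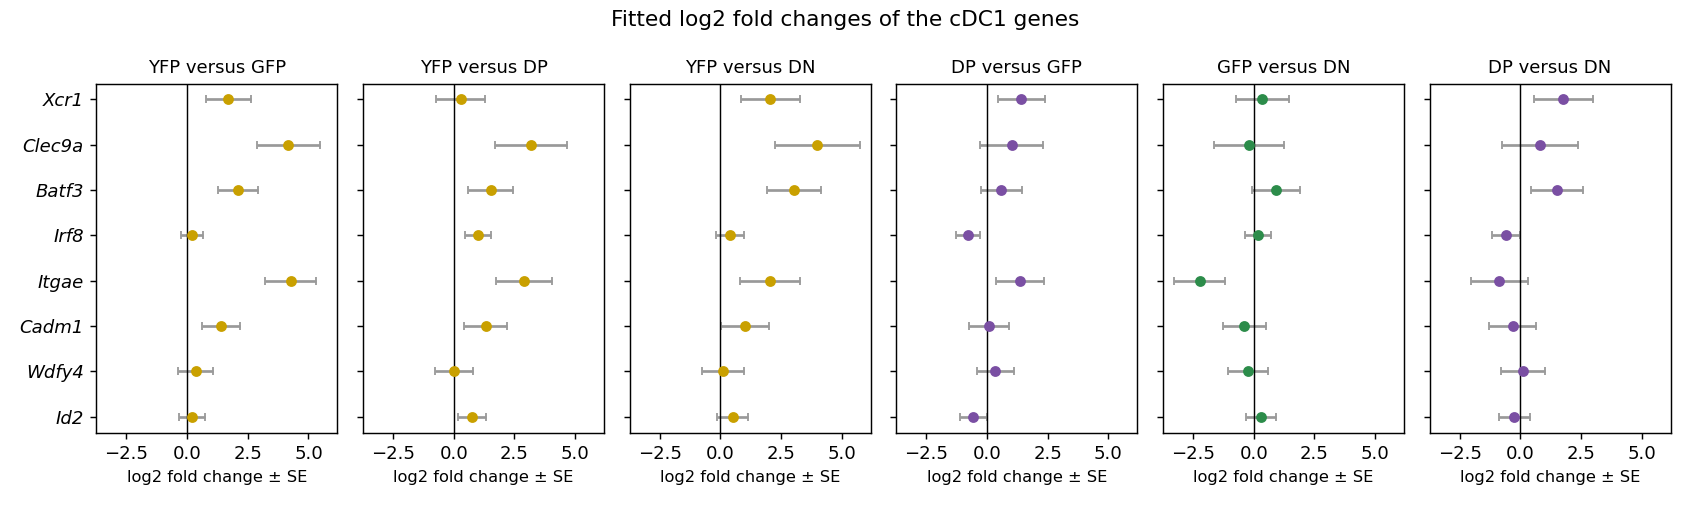
Fitted log2 fold change (horizontal axis) of each gene, with bars of 1 SE, in the 6 comparisons of sorted subsets. All 8 points lie above 0 for YFP versus GFP, YFP versus DP and YFP versus DN, with wide errors for Clec9a, and none passed the adjusted threshold with edgeR, the fit plotted.

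Against DP cells, YFP cells again had a positive log2 fold change for all 8 genes, where 45.6% of all genes did, with a median of 1.16 against -0.09 over all genes. Clec9a differed by 3.17 ± 1.48 on the log2 scale (SE, edgeR adjusted p = 0.708) and Itgae by 2.90 ± 1.15 (edgeR adjusted p = 0.590). None of the 8 was called (0% of all genes), and Clec9a and Itgae were the members at an unadjusted p under 0.05, as were 6.73% of all genes. The count of 8 rests on small values for some: Wdfy4 had equal means to within 1 CPM, and 7 of 8 were positive with DESeq2, with voom, and without DP replicates 4 and 5 and DN replicates 3 and 6. Within the libraries numbered 1 and 2, 6 of 8 were positive. The count was also 6 with any 1 of GFP replicates 3 to 6 left out. Leaving out YFP replicate 1, 3 or 5, DP replicate 4 or DN replicate 3 gave 6 as well. Without YFP replicates 1 and 3 it was 5 of 8. Without YFP replicates 1 and 3 the value for Clec9a was -1.08. No gene had all YFP libraries above or below all DP libraries (0.367% and 0.426% of all genes).

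Against DN cells, YFP cells had a positive log2 fold change for all 8 genes, where 52.4% of all genes did, and the median was 1.53 against 0.06. Clec9a differed by 3.98 ± 1.75 and Batf3 by 3.03 ± 1.12 on the log2 scale (SE, edgeR adjusted p = 0.9999 for each). None of the 8 was called (0% of all genes), and those 2 were at an unadjusted p under 0.05, as were 2.69% of all genes. Leaving out YFP replicate 5 brought Batf3 to 1.12, and leaving out YFP replicates 1 and 3 brought Clec9a to -0.14 and the median to 0.74. Voom and the fit without DP replicates 4 and 5 and DN replicates 3 and 6 each had 7 of 8 positive, and the fit without YFP replicates 1 and 3 had 5. Without DN replicate 1 all 8 stayed positive, but the median of all genes was 0.44 and only 4 of the 8 lay above it. No gene had all YFP libraries above or below all DN libraries (0.227% and 0.723% of all genes). The comparisons of YFP with GFP, DP and DN cells share the YFP libraries, so their common direction is not repeated evidence.

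Between DP and GFP cells 6 of the 8 genes were higher and 2 lower, where 59.4% of all genes were higher, and the median was 0.47 against 0.20. Xcr1 differed by 1.42 ± 0.96 on the log2 scale, but by -0.42 without DP replicate 5 and by -0.76 with voom. Irf8 differed by -0.79 ± 0.51 with all libraries (SE) and by 0.21 without DP replicates 4 and 5 and DN replicates 3 and 6, so its direction rests on those libraries. None of the 8 was called with edgeR, where 0.198% of all genes were (34), and none was at an unadjusted p under 0.05, where 6.84% of all genes were. Voom called Itgae here, with 20.1% of all genes called. No gene had all DP libraries above or below all GFP libraries (0.548% and 0.77% of all genes).

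GFP and DN cells split the 8 genes evenly, 4 higher and 4 lower, where 54.2% of all genes were higher, and the median was -0.00 against 0.04 over all genes. Itgae was lower in GFP cells by 2.22 log2 units (-2.22 ± 1.06, SE, edgeR adjusted p = 0.99998), and the value was -0.24 without DN replicate 1. Same-numbered GFP and DN libraries deviated together from their subset means (correlations 0.501 to 0.693 over 3 pairs). GFP replicate 2 and DN replicate 1 reached 0.752, so pairing by number was not settled. Itgae was lower in the GFP library under each shared number, at 4.37 against 24.4 CPM in DN cells for number 1. The values were 1.16 against 2.64 CPM for number 3 and 0.201 against 2.05 CPM for number 6. With the replicate block the log2 fold change was -2.76 (edgeR adjusted p = 0.9998). None of the 8 was called (0% of all genes), and Itgae was the member at an unadjusted p under 0.05, as were 1.35% of all genes. No gene had all GFP libraries above or below all DN libraries (0.636% and 0.846% of all genes).

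DP and DN cells likewise had 4 of the 8 higher and 4 lower (5 and 3 with RLE size factors), where 58.9% of all genes were higher, with a median of -0.07 against 0.21. None was called (0% of all genes) or at an unadjusted p under 0.05, where 2.71% of all genes were. No gene had all DP libraries above or below all DN libraries (0.455% and 0.98% of all genes). The test of whether the difference between the subsets with and without the Cd11c reporter depends on the Cx3cr1 reporter passed for none of the 8, with the smallest unadjusted p at Batf3 (0.0852, edgeR).

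Within the libraries numbered 1 and 2, which hold 1 YFP, 2 DP, 2 GFP and 1 DN library, edgeR called more of the 8. The lone YFP and DN libraries are assumed there to vary like the pairs of DP and GFP libraries. Xcr1, Clec9a and Itgae were called for YFP versus GFP (7.83% of all genes called) and for YFP versus DP (8.15%). Cadm1 was called for DP versus GFP (1.33%), and Itgae and Cadm1 for GFP versus DN (12.5%). For YFP versus DN that fit sets 1 library against 1, so its calls of Xcr1, Clec9a, Batf3, Itgae and Cadm1 (9.84%) compare those libraries and not the subsets. For DP versus DN the called genes were Clec9a, Batf3, Itgae, Cadm1 and Id2 (14.1%). Within the libraries numbered 3 to 6 none of the 8 was called in any comparison. Every call against YFP or DN cells in the first set rests on YFP replicate 1 or DN replicate 1 alone.

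**Figure D3:**
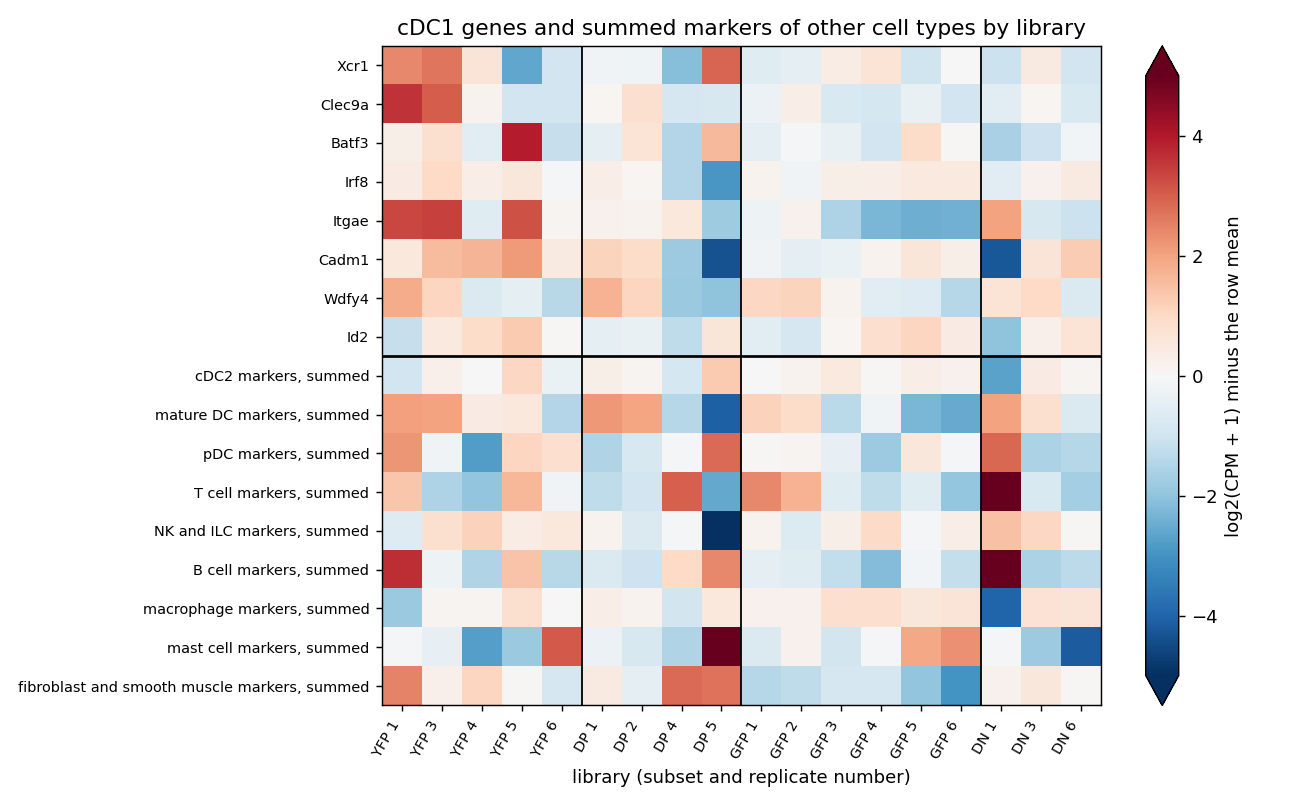
The 8 genes and the summed markers of 9 other cell types in each of the 18 libraries (columns, by subset). Colour gives log2(CPM + 1) minus the mean of the row, with values past 5 in either direction drawn in the end colours. DN replicate 1 is high for T and B cell markers, DP replicate 5 for mast cell markers, and YFP replicate 1 for B cell markers beside its high Clec9a.

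Markers of other cells moved with some of the high values. YFP replicate 1 held B cell markers at 445 CPM summed over 5 genes (5 of 5 found, Cd79a at 178 CPM), against 11.2 to 91.0 CPM in the other YFP, 15.5 to 181 in DP and 6.54 to 29.9 CPM in GFP libraries. The B cell sum was 1165 CPM in DN replicate 1, where Clec9a was at 0.301 CPM, and 27.3 CPM in YFP replicate 3, where Clec9a was at 14.7 CPM. Fibroblast and smooth muscle markers (5 of 5 found) summed to 576 to 5755 CPM in YFP libraries, 754 to 7477 in DP, 132 to 581 in GFP and 1076 to 1532 CPM in DN libraries. The highest of these YFP values was in replicate 1, whose Cadm1 was among the lower ones of the YFP libraries. DP replicate 5, with the highest Xcr1, held mast cell markers at 9921 CPM summed over 5 genes (5 of 5 found, Cpa3 at 2432 CPM), against 322 CPM or less in every other library. Dcn, the decorin gene, was the one marker of another cell to pass in any comparison. DP replicates 1, 2, 4 and 5 held 404, 226, 3674 and 4439 CPM of it, against 39.5 to 264 CPM in GFP libraries, so replicates 4 and 5 stood apart. It rose in DP against GFP cells by 3.98 ± 0.74 on the log2 scale (SE, edgeR adjusted p = 0.0361). The call was lost without any 1 GFP library, without DP replicate 4 and without DP replicate 5, with log2 fold changes of 3.56 to 4.78 in those fits. It was lost as well with voom (1.24), with the replicate block (edgeR adjusted p = 0.929) and without DP replicates 4 and 5 and DN replicates 3 and 6 (1.46). Mature dendritic cell markers (5 of 5 found) summed to 41.8 to 491 CPM in YFP libraries, 5.87 to 523 in DP, 19.6 to 260 in GFP and 69.2 to 468 CPM in DN libraries, and YFP replicates 1 and 3, high in Clec9a, held 491 and 475 CPM. Plasmacytoid dendritic cell markers (5 of 5 found) summed to 2.20 to 99.8 CPM in YFP, 6.82 to 154 in DP, 5.32 to 31.2 in GFP and 6.38 to 161 CPM in DN libraries. No marker found was at 0 counts in every library. The part of these cells in the levels of the 8 genes was not tested.

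The 8 genes did not vary as a block across the 18 libraries. Spearman's rho of log2(CPM + 1) was 0.741 between Clec9a and Wdfy4 and 0.728 between Irf8 and Cadm1. It was 0.392 between Xcr1 and Clec9a, 0.212 between Xcr1 and Batf3, and -0.486 between Itgae and Id2. These values describe 18 libraries that share depth, replicate numbering and other cells, and carry no test. Xcr1 and Clec9a were both high in YFP replicates 1 and 3 and parted in DP replicate 5.

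**Figure D4:**
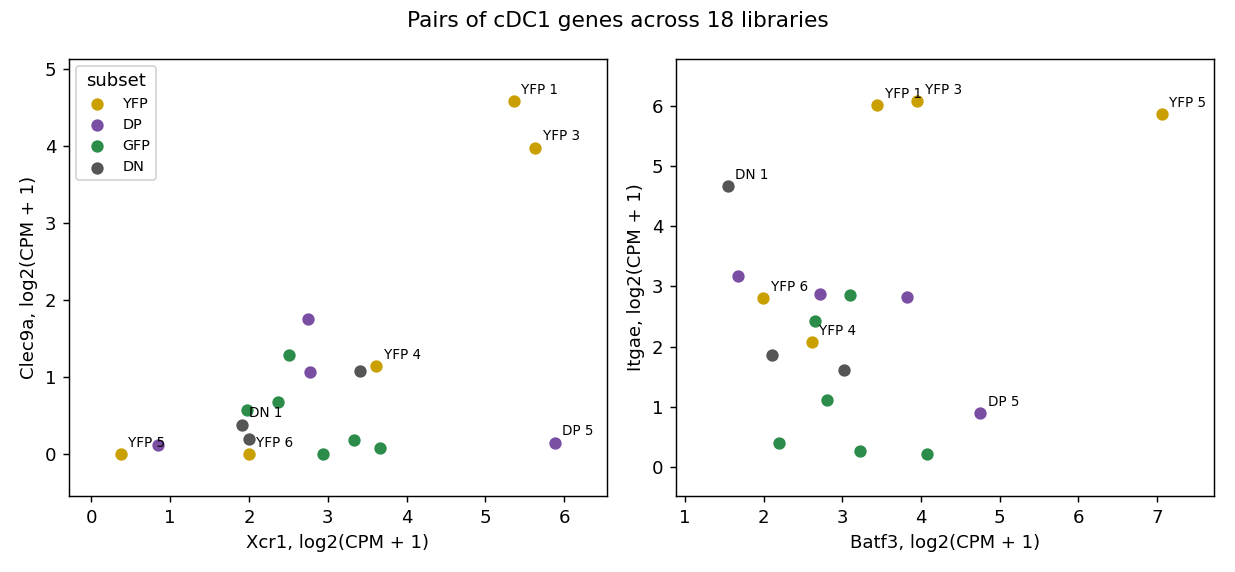
Pairs of the 8 genes plotted against each other in the 18 libraries, both axes in log2(CPM + 1), coloured by subset. YFP replicates 1 and 3 are high for both Xcr1 and Clec9a, and DP replicate 5 is high for Xcr1 (57.9 CPM) with Clec9a at 0.107 CPM.

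The genes most like each member over the 18 libraries, by rho among 11053 genes with a mean of at least 2 CPM, differed from member to member. Xcr1 was closest to Ppfibp2 (rho 0.961), Fcrlb and Zfp963. Clec9a was closest to Mycl1 (0.845), the gene of L-MYC that mouse cDC1 use, Klf8 and Klrb1b, and Itgae to Zbtb46 (0.872), a factor of classical dendritic cells, Aldh1a2 and H2-Ob. Batf3 was closest to H2-DMa (0.866), Rogdi and Mt1, and Irf8 to Sars (0.903), Atad3a and Hps4. Cadm1 was closest to H2-M2 (0.917), Lpl and Cxcl14, Wdfy4 to Tbl1xr1 (0.922), Huwe1 and Ralgapa2, and Id2 to Sh3glb1 (0.990), Tubb2a and Igf1.

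A list of 20 other genes associated with cDC1, all tested, was described beside them. In YFP against GFP cells 18 were higher and 2 lower, where 51.7% of all genes were higher. None was called with edgeR (0% of all genes), and 7 were at an unadjusted p under 0.05 (7.02% of all genes), with a median log2 fold change of 1.131. Of the 4 with the highest levels, Naaa, a lysosomal amidase, averaged 226 ± 137 CPM in YFP and 107 ± 18.6 CPM in GFP cells (SD), a log2 fold change of 1.08 ± 0.48 (SE, edgeR adjusted p = 0.663). Cd36, a lipid and dead-cell receptor shared with macrophages, averaged 729 ± 465 CPM in YFP and 319.6 ± 136 CPM in GFP cells (SD). Ppt1, a lysosomal thioesterase, averaged 606 ± 136 CPM in YFP and 582 ± 161 CPM in GFP cells, and Rab7b, listed as 5430435G22Rik, 587 ± 327 CPM in YFP and 544 ± 174 CPM in GFP cells (SD), differences within their spread.

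Gcet2, Sept3 and Tlr11 of that list are described here as genes picked after their values were seen. Flt3, from the list of dendritic cell lineage factors, was picked in the same way. That second list had 5 of 15 genes higher and 10 lower in YFP than in GFP cells (51.7% of all genes higher). Gcet2, an older symbol of Gcsam, was at 37.3, 31.2, 2.46, 0 and 0 CPM in YFP replicates 1, 3, 4, 5 and 6, against at most 0.887 CPM in GFP libraries. It reached 57.2 CPM in DP replicate 5. Gcet2 thus had the library pattern of Xcr1, high in YFP replicates 1 and 3 and highest in DP replicate 5. Sept3 was at 23.5, 26.2, 2.83, 123 and 2.99 CPM in YFP replicates 1, 3, 4, 5 and 6, against at most 2.46 CPM in GFP libraries. The receptor gene Flt3, whose ligand drives dendritic cell growth, was at 66.0 and 51.0 CPM in YFP replicates 1 and 3 and at 4.72, 0.199 and 0 CPM in YFP replicates 4, 5 and 6, while GFP libraries spanned 1.14 to 35.6 CPM. Tlr11, a sensor of profilin in mouse cDC1, was at 15.3 and 6.99 CPM in YFP replicates 1 and 3 and at most 0.819 CPM in the other YFP libraries, against at most 1.15 CPM in GFP libraries.

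Between DP and GFP cells 12 of the 20 were higher and 8 lower, near the 59.4% of all genes that were higher, and 0.198% of all genes were called. Cd24a, the gene of a surface glycoprotein found on cDC1, B cells and other leukocytes, was the only one of the 20 to pass. It rose by 4.30 ± 0.90 on the log2 scale (SE, edgeR adjusted p = 0.0457). DP replicates 1, 2, 4 and 5 held 7.90, 8.62, 212 and 1099 CPM, against 11.1 to 22.1 CPM in GFP libraries (median 17.3). The rise lies in DP replicates 4 and 5, the libraries with low reporter transcripts, since both other DP libraries were below every GFP library. The log2 fold change was -0.73 without DP replicates 4 and 5 and DN replicates 3 and 6, -0.39 within numbers 1 and 2 and -0.54 with voom, and the adjusted p was 0.929 with the replicate block. Leaving out 1 library at a time, it ran from 2.38, without DP replicate 5, to 5.07, and the call was lost without any 1 GFP library and without DP replicate 4, DP replicate 5, YFP replicate 6 or DN replicate 6. DP replicate 5 was the library rich in mast cell markers and DP replicate 4 held 195 CPM of T cell markers. B cell markers summed to 19.5, 15.5, 67.4 and 181 CPM in DP replicates 1, 2, 4 and 5. Fibroblast and smooth muscle markers summed to 1436, 754, 7477 and 6865 CPM in the same order. The part of these cells in the Cd24a level was not tested. The list stood at 13 higher and 7 lower for YFP versus DP, 16 and 4 for YFP versus DN, 10 and 10 for GFP versus DN and 9 and 11 for DP versus DN, with none called.

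**Figure D5:**
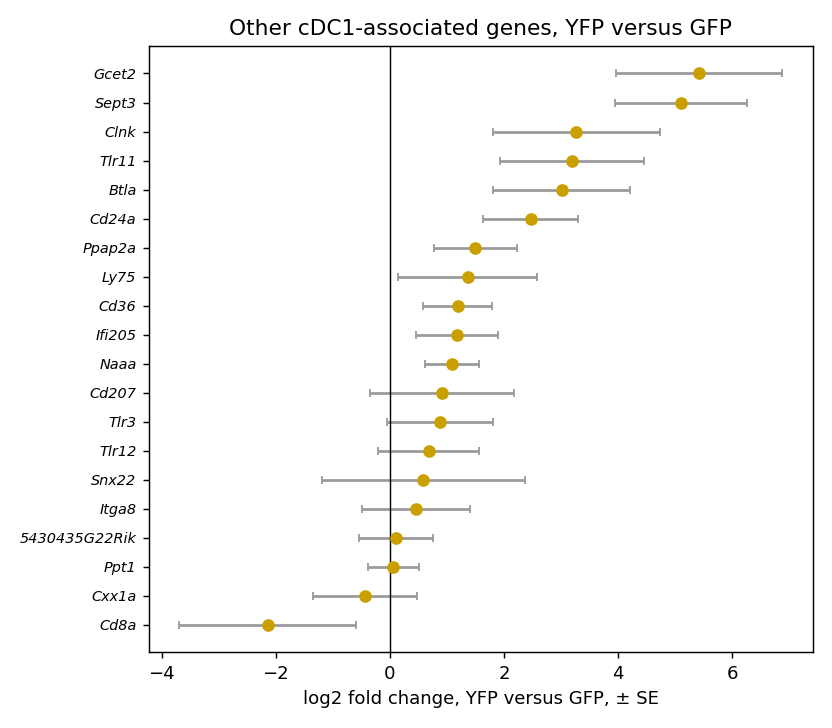
Fitted log2 fold change of 20 other cDC1-associated genes in YFP versus GFP cells (horizontal axis) with bars of 1 SE. Of the 20, 18 lie above 0, led by Gcet2 and Sept3, and none passed the adjusted threshold with edgeR.

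Lists of genes that act around the 8 were also described for YFP versus GFP cells, where 51.7% of all genes were higher and 0% were called with edgeR. Of 20 genes of MHC class I loading and cross-presentation, 13 were higher and 7 lower in YFP than in GFP cells, none was called, and the median log2 fold change was 0.20. The NADPH oxidase subunit gene Cybb was at 944 ± 553 CPM in YFP and 1051 ± 306 CPM in GFP cells, and B2m, the MHC class I light chain, at 3729.7 ± 3358 CPM in YFP and 2769 ± 1177 CPM in GFP cells (SD). Of 15 dendritic cell lineage factors 5 were higher and 10 lower, with none called and a median of -0.24. Among them Sfpi1, the older symbol of the PU.1 gene Spi1, was at 580 ± 372 CPM in YFP and 539 ± 149 CPM in GFP cells, and Zeb2, a repressor of cDC1 fate in mice, at 188 ± 53.2 CPM in YFP and 222 ± 90.7 CPM in GFP cells (SD).

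None of the partner genes of the factors was called in YFP versus GFP cells, where 0% of all genes were called and 51.7% were higher. All 5 BATF and JUN partners had a negative log2 fold change (median -0.48), the 8 other IRF genes split 4 and 4, and of 6 E protein and Id genes 2 were higher and 4 lower. Of 13 genes for the XCR1 ligand and cDC1 products 11 were tested, with 2 higher, 9 lower and none called. Xcl1, the XCR1 ligand gene, peaked at 37.1 CPM in DN replicate 1, the library rich in T cell markers, and was at most 8.46 CPM elsewhere. Il12b, the cytokine subunit gene for which cDC1 are a known source and singled out after its values were seen, was at 142, 214 and 63.9 CPM in YFP replicates 1, 3 and 4 and at 0.399 and 5.97 CPM in YFP replicates 5 and 6, against 1.80 to 49.9 CPM in GFP libraries. It was at 0.578, 98.7 and 10.4 CPM in DN replicates 1, 3 and 6. DP replicates 1, 2, 4 and 5 held 37.0, 15.5, 0.499 and 0.107 CPM of it.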

How the data were processed

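RNA of sorted CD45+ arterial cells was made into libraries with SMART-seq v4 and Nextera XT kits after 11 cycles of amplification, per the labels' protocols. TopHat 1.4.1, SAMtools and HTSeq 0.7.1 with the mm10 build were used, per the submitters' processing notes. The authors deposited raw counts per gene symbol for 18 libraries, and these were used as they stood. The annotation, strand setting and treatment of reads with several matches are not given in the sources used here. Reads carry no molecular identifiers, so floors of 3 counts cover counting error only.

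The test was the edgeR 4.0.16 quasi-likelihood test under R 4.3.3 (filterByExpr by subset, TMM scaling, robust fit, 1 mean per subset over 18 libraries). P-values were adjusted by Benjamini-Hochberg over all 17143 genes, threshold 0.05. SE is the size of the log2 fold change divided by the root of F, CPM uses TMM-scaled totals, and SD is over libraries. The test was also run on simulated counts, and the outcome is not given here. The common dispersion of the fit was 0.890. Alternatives were DESeq2 1.42.0, limma 3.58.1 voom, RLE factors, no filter, a replicate block and fits on fewer libraries.

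The genes and the context lists (18 lists in all, 142 of 143 entries found) were chosen with earlier results of these data known. From each context list, the naming rule took the 4 genes with the highest mean CPM and any that passed. Named are those the results turn on. Older symbols were matched through RefSeq synonyms. Coordinates and exon lengths are from GENCODE for mm10, promoters and motif shares from RefSeq. Libraries of the same subset all differed by more than sampling noise (lowest chi-square over its degrees of freedom 16.4). Same-numbered GFP and DN libraries deviated together (correlations 0.501 to 0.693 over 3 pairs), though differently numbered ones reached 0.752. In the other comparisons the lowest same-number correlation was under 0.1. Their same-number medians were 0.400 for YFP versus GFP, 0.241 for DP versus GFP, 0.250 for YFP versus DP and 0.366 for YFP versus DN. The medians for different numbers were -0.077, -0.106, -0.067 and -0.054 in that order. For DP versus DN the only same-number pair was at -0.212, against a median of 0.011 for different numbers.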

Additional observations from a re-analysis of the deposited data

Results flagged for a closer look

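Of 24 sets of 4 to 6 libraries checked (the 8 genes in YFP, DP and GFP cells), 2 held a library far from its group. For normally distributed values, chance alone would place about 1 of 20 such sets apart. That rate may not hold here, since the sets share libraries and some CPM values are skewed (Batf3 in YFP cells 33.0 ± 55.8 CPM, SD). Xcr1 was at 57.9 CPM in DP replicate 5, where the other 3 DP libraries held 0.789 to 5.82 CPM. The gap to the nearest of them was 0.912 of the whole range. That library also had low Cx3cr1 and Itgax and the most mast cell markers. DP replicate 5 and YFP replicate 5 had the lowest TMM factors of all 18 libraries, 0.533 and 0.445, against 0.862 to 1.75 in the others, which raises their CPM values. In pairs of libraries, the chi-square per degree of freedom of their counts was 518 to 765 between DP replicate 5 and the other DP libraries and 37.4 to 262 among those, and 583 to 817 between YFP replicate 5 and YFP replicates 1, 3 and 4 and 90.4 to 308 among those. Batf3 was at 132 CPM in YFP replicate 5, where the other 4 YFP libraries held 2.99 to 14.5 CPM, with a gap of 0.911 of the range. The same library had the highest Cadm1 (186 CPM), Id2 (1811 CPM) and Itgax (1120.1 CPM) of all 18, but 3 counts of Xcr1 and none of Clec9a.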

How the results depend on the processing

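With edgeR none of the 8 genes was called in any comparison, also with RLE factors, without the filter, with the replicate block and without any 1 library. DESeq2 and voom each called 2 for YFP versus GFP, with 1.08% and 2.69% of all genes called. Voom called 1 for DP versus GFP, with 20.1% of all genes called. Calls with numbers 1 and 2 alone, where YFP and DN cells have 1 library each, are given above beside their shares of all genes. With the replicate block the median log2 fold change of the 8 was 1.21 for YFP versus GFP and 0.07 for GFP versus DN, and the block changed no call of the 8. It took away the calls of Cd24a (2.46) and Dcn (3.41) for DP versus GFP. Cd24a there was -0.54 with voom, -0.73 without the 4 doubtful DP and DN libraries and -0.39 with numbers 1 and 2 alone.

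RLE factors put the median of all genes at 0.20 for YFP versus GFP (0.04 with TMM), 0.38 for DP versus GFP (0.20) and 0.32 for DP versus DN (0.21), and left all 8 genes above it in each YFP comparison. The median of the 8 moved by more than its spread in the settings given here and without YFP replicate 5 (0.90 for YFP versus GFP). With numbers 1 and 2 alone it was 0.99 for YFP versus GFP, 0.82 for GFP versus DN and 1.18 for DP versus DN. With numbers 3 to 6 alone it was -0.72 for DP versus GFP, 2.24 for YFP versus DP, -0.39 for GFP versus DN and -1.42 for DP versus DN. Without DP replicates 4 and 5 and DN replicates 3 and 6 it was 0.51 for GFP versus DN, 2.40 for YFP versus DN and 1.06 for DP versus DN. Without YFP replicates 1 and 3 it was 0.56 for YFP versus GFP and 0.74 for YFP versus DN.

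Leaving out 1 library at a time, the median ran from 0.90 to 1.86 for YFP versus GFP, 0.02 to 0.82 for DP versus GFP, 0.44 to 1.73 for YFP versus DP, -0.18 to 0.29 for GFP versus DN, 0.98 to 1.76 for YFP versus DN and -0.43 to 0.40 for DP versus DN. Some single genes changed sign, and the cases named here are not all. For GFP versus DN, 2 of the 8 were higher and 6 lower without DN replicate 1. For YFP versus DN, 5 were higher and 3 lower without YFP replicates 1 and 3. For YFP versus GFP, Id2 was -0.34 with numbers 1 and 2 alone and spanned -0.033 to 0.70 with 1 library out, Wdfy4 spanned -0.30 to 0.69 with 1 library out and was -0.91 without YFP replicates 1 and 3, and Xcr1 was -0.36 without those. Clec9a without them was -1.08 for YFP versus DP and -0.14 for YFP versus DN. For DP versus GFP, Xcr1 was -0.76 with voom and spanned -0.42 to 2.34 with 1 library out, and Irf8 was 0.21 without the 4 doubtful DP and DN libraries and 0.26 with numbers 1 and 2 alone. The causes were not tested. Depth limits YFP replicate 6, where 1 count is the whole evidence for Xcr1 and Batf3.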
